A study of Mus musculus with 6 samples.

Results

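The 9 genes described here stand at the point where oxygen supply meets cell growth. Ddit4, Ndrg1 and Mxi1 are hypoxia-linked inhibitors of growth, Sesn2 is a stress-linked one, and Tsc1, Tsc2, Rheb, Mtor and Eif4ebp1 belong to the mTOR pathway. They were taken by symbol, and all 9 were in the deposited table of 13843 genes. The rule uses no measured value, but the genes were chosen with earlier results of these data known. Knockout embryos had the genotype Vhl(flox/flox) / Nkx2.5(Cre/+) and controls Vhl(flox/flox) / Nkx2.5(+/+), all on C57BL/6 at E12.5. Each of the 6 libraries, 3 labelled knockout and 3 control, held polyadenylated RNA of the ventricles of 1 embryo. Cre is made from the Nkx2.5 locus in cardiac progenitors, so knockouts differ from controls by the Cre allele as well as by Vhl, and no group with Cre and intact Vhl was analysed here.

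In normoxia the VHL protein marks the alpha subunits of hypoxia-inducible factors (HIF) for destruction, and without VHL their targets can be transcribed in the presence of oxygen. The kinase mTOR, in complex 1 (mTORC1), promotes protein synthesis and cell growth once the small GTPase RHEB is loaded with GTP. The TSC complex turns RHEB off. The DDIT4 protein (also called REDD1) engages this brake under hypoxia, which lowers mTORC1 activity, whereas MXI1 competes with MYC for the partner MAX.

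Recovered depth, summed over the 13843 genes of the table, was 10911630 to 12592902 reads in libraries labelled knockout and 9067805 to 11866333 in controls. Values are given as deposited, in normalized CPM (reads scaled to an effective library size). Vhl was at 11.1 and 10.3 in knockouts 1 and 2, and at 33.7, 36.3 and 38.6 in controls 1 to 3. Hif1a mRNA, which encodes a HIF alpha subunit, was also lower, at 185 and 163 in knockouts 1 and 2 beside 457, 405 and 447 in controls 1 to 3 (log2 -1.32 ± 0.09, limma adjusted p = 0.00025), and at 473 in the library labelled knockout 3. For Vhl, the library labelled knockout 3 had 34.5, inside the control range and against its label, so it is given apart from the other 2 knockouts, and the members' limma results are also given with it. Transcripts that define ventricular muscle were abundant in every library, Myl2 (ventricular myosin light chain) at 4842 and 4271 in knockouts 1 and 2, with 5289 in the library labelled knockout 3 and 5058 to 5611 in controls. In tissue RNA, fewer cells of a type and less RNA per cell cannot be told apart.

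Knockouts 1 and 2 differed from the 3 controls most in the hypoxia-linked inhibitors. Ndrg1, Ddit4, Mxi1 and Eif4ebp1 were called higher, by 1.42, 0.87, 0.57 and 0.41 on the log2 scale, and none of the 9 was called lower. These 4 are 44.4% of the members, where 3.01% of all genes tested were called higher and 1.24% lower (4.25% in either direction; limma on log2(value + 1), Benjamini-Hochberg adjusted p under 0.05, 416 higher and 172 lower). The TSC, RHEB and MTOR transcripts lay slightly lower in knockouts 1 and 2 without passing the test. Both knockouts lay above all 3 controls for 4 members, as for 18.1% of all genes, and below all 3 for Tsc1, Tsc2, Mtor and Rheb, as for 17% of all genes. In the library labelled knockout 3, 4 members lay above all controls, as did 22.2% of all genes, and 2 lay below, as did 21.7%. With that library kept, 0 members and 0 of 13843 genes passed (limma, smallest adjusted p 0.768). At an unadjusted p under 0.05, 3 members, Ddit4, Ndrg1 and Eif4ebp1, and 859 genes passed in that fit, and no other tool was run on it. The log2 fold changes with all 6 libraries were 0.66 ± 0.19 for Ddit4, 0.37 ± 0.17 for Mxi1 and 0.29 ± 0.11 for Eif4ebp1 (SE). They were -0.17 ± 0.08 for Tsc2, -0.12 ± 0.09 for Tsc1, -0.08 ± 0.12 for Mtor and -0.07 ± 0.06 for Rheb. None of the genes in the 12 lists described further on passed in that fit.

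**Figure D1:**
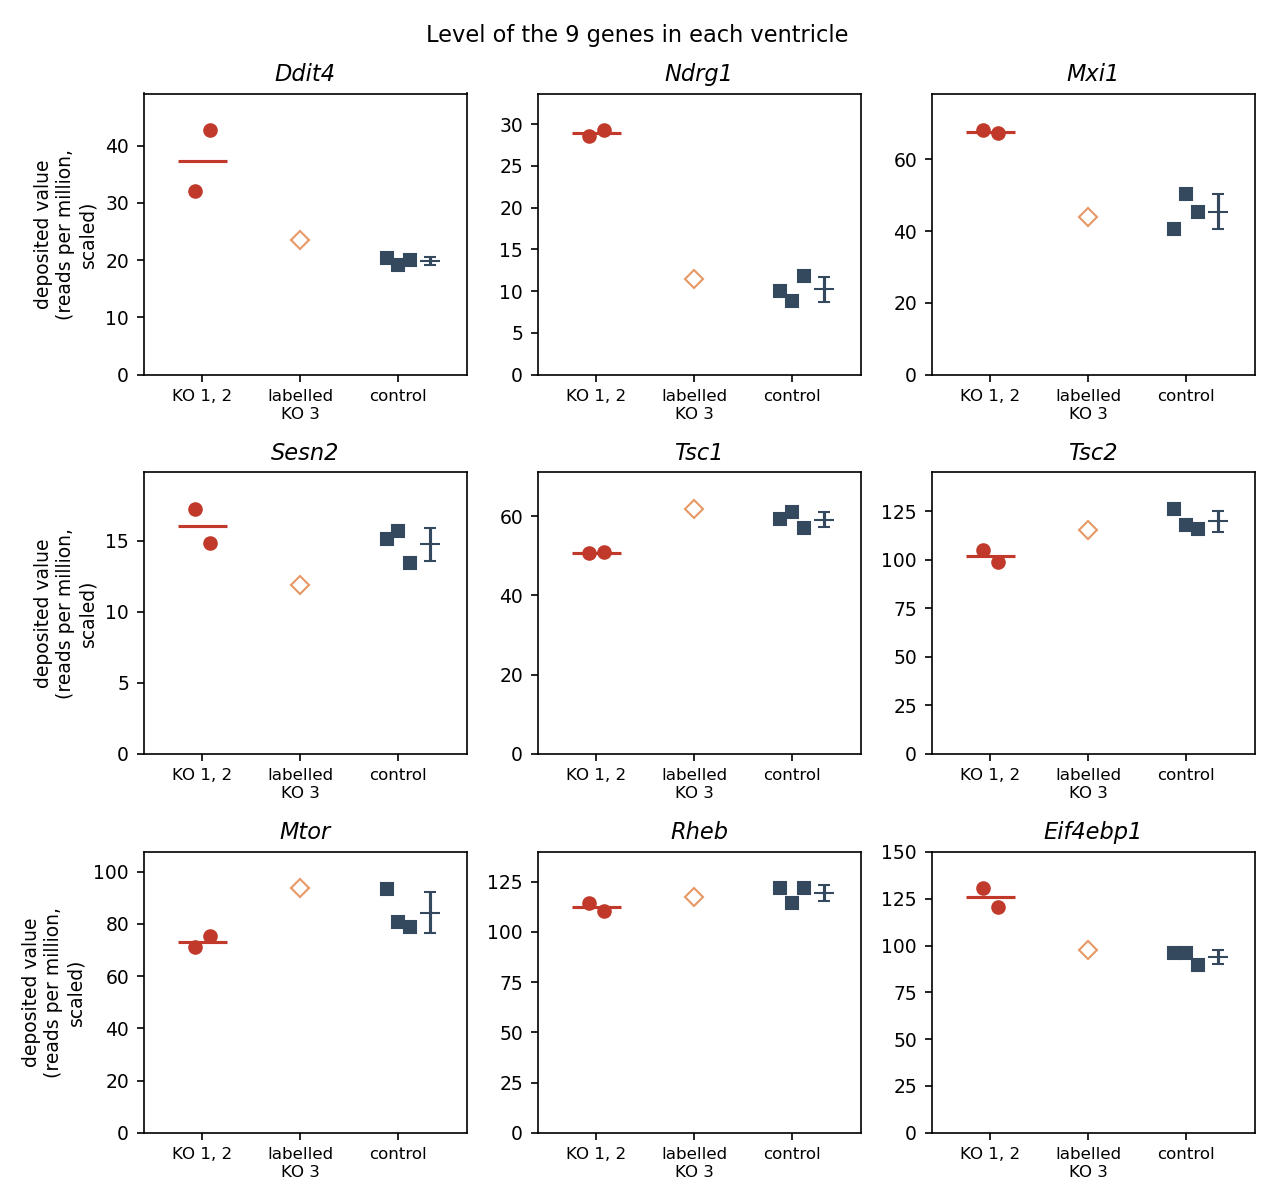
Deposited values (normalized CPM, axes from 0) of the 9 genes in knockouts 1 and 2 (circles, line at their mean), the library labelled knockout 3 (open diamond) and 3 controls (squares, with mean and SD). Ndrg1, at 28.5 and 29.3 in knockouts 1 and 2 beside 8.81 to 11.9 in controls, has the highest ratio to controls, 2.83, and the groups overlap for Sesn2.

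Promoter sequences of RefSeq on GRCm38.p6 were found for 7 of the 9 members, as 9 windows from 250 bases before to 50 after a transcription start. No window was found for Ndrg1 and Eif4ebp1, which also rose, so their promoters were not searched. Those of Ddit4 and Mxi1 are shown because these genes rose, and that of Rheb, which did not pass, because it holds the palindrome CACGTG that MYC, MAX and MXI1 proteins can bind. Capitals mark ACGTG and GCGTG, the core to which HIF binds, on either strand. CACGTG contains ACGTG on both strands, so the same letters count for both motifs.

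Ddit4, chr10:59951721-59952020, minus strand: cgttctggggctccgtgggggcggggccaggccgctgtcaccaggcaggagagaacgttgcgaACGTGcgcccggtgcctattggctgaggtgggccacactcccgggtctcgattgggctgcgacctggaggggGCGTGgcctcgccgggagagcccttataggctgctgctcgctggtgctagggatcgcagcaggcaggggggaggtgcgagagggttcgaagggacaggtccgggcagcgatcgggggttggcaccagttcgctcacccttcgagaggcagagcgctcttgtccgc

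Mxi1 start 2, chr19:53329163-53329462, plus strand: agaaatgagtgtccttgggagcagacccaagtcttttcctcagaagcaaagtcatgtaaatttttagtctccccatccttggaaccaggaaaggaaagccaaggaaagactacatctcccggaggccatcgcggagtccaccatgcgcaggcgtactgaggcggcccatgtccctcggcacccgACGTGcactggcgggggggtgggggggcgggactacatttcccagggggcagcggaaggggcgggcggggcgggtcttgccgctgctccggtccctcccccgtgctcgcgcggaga

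Mxi1 start 3, chr19:53329445-53329744, plus strand: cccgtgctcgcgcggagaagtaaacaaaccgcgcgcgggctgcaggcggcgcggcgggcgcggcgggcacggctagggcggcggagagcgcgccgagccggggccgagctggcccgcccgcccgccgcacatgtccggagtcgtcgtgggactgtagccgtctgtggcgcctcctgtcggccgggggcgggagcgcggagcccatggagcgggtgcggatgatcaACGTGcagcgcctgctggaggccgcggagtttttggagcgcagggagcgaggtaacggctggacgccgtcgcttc

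Rheb, chr5:24842312-24842611, minus strand: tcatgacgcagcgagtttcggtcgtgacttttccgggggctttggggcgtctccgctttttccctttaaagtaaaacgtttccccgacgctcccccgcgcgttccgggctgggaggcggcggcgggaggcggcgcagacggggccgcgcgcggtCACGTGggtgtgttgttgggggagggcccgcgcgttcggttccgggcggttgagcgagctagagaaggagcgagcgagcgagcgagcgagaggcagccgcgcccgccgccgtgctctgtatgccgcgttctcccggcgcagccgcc

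The Ddit4 window holds ACGTG at -187 and GCGTG at -115 from the start. Mxi1 has 3 annotated starts in the table. The upstream window, chr19:53310256-53310555, holds neither form, and the others hold 1 ACGTG each, at -66 and at -25. Rheb holds CACGTG at -96. Of the other windows, those of Tsc1 and Tsc2 hold 1 GCGTG each, on the opposite strand at -6 and -65, and those of Sesn2 and Mtor hold neither form. Among 32841 promoter windows of the same length, 19.6% hold ACGTG, 32.4% GCGTG, 43.8% at least 1 of these, and 7.15% CACGTG. The stress-response element TGATGCAA, searched on both strands, is in 0 of the 9 windows and in 0.895% of all. These matches describe letters in a window and are not evidence of binding.

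Ndrg1 (chromosome 15, 66929318 to 66969640 on GRCm38, minus strand), a gene induced by hypoxia and by differentiation that restrains growth in many cell types, showed the largest difference of the 9. It was at 28.5 and 29.3 in knockouts 1 and 2, from 353 and 334 reads, at 11.4 in the library labelled knockout 3, and at 9.98, 8.81 and 11.9 in controls 1 to 3, from 90 to 113 reads. Both knockouts stood well above every control, and the library labelled knockout 3 lay inside their range. The opposite-strand genes Gm17035 and Gm2895, which are not in the table used, share 419 and 137 exon bases with Ndrg1, and reads there cannot be assigned by strand. Knockout 1 had 2.86 times the value of its littermate control and knockout 2 had 3.32 times. Its log2 fold change was 1.42 ± 0.14 (SE, limma adjusted p = 0.0017), rank 78 of 13843 from the highest, and the adjusted p stayed under 0.05 whichever of the 5 libraries was left out (0.00198 to 0.029). Over 13 alternatives the adjusted p ran from 1.5e-11 (DESeq2) to 0.768 with all 6 libraries, where the log2 fold change was 1.00 ± 0.32.

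Its relative Ndrg2, also a growth inhibitor of the family, rose too, at 279 and 263 in knockouts 1 and 2, with 165 in the library labelled knockout 3, and 166 ± 6.14 in controls (SD, n = 3; log2 0.70 ± 0.07, limma adjusted p = 0.0015). Ndrg3 was at 44.5 and 48.2 in knockouts 1 and 2, with 50.6 in the library labelled knockout 3 and 50.2 ± 2.13 in controls, and did not pass. Ndrg4, which is expressed in heart and brain, was at 279 and 273 in knockouts 1 and 2, with 373 in the library labelled knockout 3, and 334 ± 17.1 in controls. It did not pass with limma (adjusted p = 0.088) but was called lower between littermates (0.036) and by DESeq2 (0.013). The 4 genes of the family thus held 2 called higher and 0 lower, with a median log2 fold change of 0.29 beside -0.0082 over all genes. Whether family members differ from each other was not tested.

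Ddit4 (chromosome 10, 59949669 to 59951834, minus strand), the HIF target whose product acts through the TSC complex, was at 32.1 and 42.7 in knockouts 1 and 2, with 23.5 in the library labelled knockout 3, and at 20.4, 19.1 and 20.0 in controls 1 to 3. Controls spread by 3.32% of their mean (coefficient of variation), both knockouts lay above them, and the knockouts differed from each other by more than the controls did. Relative to the littermate control, knockout 1 had 1.57 times the value and knockout 2 had 2.23 times. The log2 fold change was 0.87 ± 0.13 (SE, limma adjusted p = 0.012; 3.3e-05 to 0.768 over 13 alternatives). The call was lost without knockout 2 (adjusted p = 0.064) and without control 2 (0.059). Its paralogue Ddit4l was at 4.77 and 3.24 in knockouts 1 and 2, with 2.01 in the library labelled knockout 3 and 2.99 ± 0.958 in controls, which overlap.

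Sesn2 (chromosome 4, 132492032 to 132510501, minus strand), a leucine-binding inhibitor of mTORC1 that p53 and ATF4 induce, was at 17.2 and 14.8 in knockouts 1 and 2, with 11.9 in the library labelled knockout 3, and 15.1, 15.7 and 13.4 in controls. Groups overlapped. The log2 fold change was 0.11 ± 0.13 (SE, limma adjusted p = 0.73), and its 95% interval ran from -0.19 to 0.41. With all 6 libraries it was -0.02. Sesn1 was at 30.2 and 27.3 in knockouts 1 and 2, with 34.6 in the library labelled knockout 3 and 35.9 ± 1.72 in controls, and Sesn3 at 25.5 and 21.7 in knockouts 1 and 2, with 27.7 in the library labelled knockout 3 and 25.7 ± 1.84 in controls. Neither passed. Of the 6 genes in the list of DDIT4, the sestrins and the stress protein TXNIP, Ddit4 was called, and the median was -0.0028. Txnip, at 238 and 208 in knockouts 1 and 2, with 269.95 in the library labelled knockout 3 and 303 ± 30.2 in controls, missed the threshold (limma adjusted p = 0.058) and was called lower between littermates (0.031) and by DESeq2 (0.0022).

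Mxi1 (chromosome 19, 53310518 to 53375810, plus strand) was at 68.1 and 67.3 in knockouts 1 and 2, with 44.0 in the library labelled knockout 3, and at 40.7, 50.3 and 45.3 in controls 1 to 3. Knockouts 1 and 2 were nearly alike and above all controls, while the controls spread by 10.6% of their mean (coefficient of variation). Relative to the littermate control, knockout 1 had 1.67 times the value and knockout 2 had 1.34 times. This gave a log2 fold change of 0.57 ± 0.10 (SE, limma adjusted p = 0.022; 0.0005 to 0.768 over 13 alternatives). The call was lost without knockout 1 (0.13), knockout 2 (0.098) or control 3 (0.061). Reads were counted per gene, so the value sums the 3 starts and does not tell which was used. Gm10197 on the opposite strand shares 194 exon bases with Mxi1 and had at most 32 reads in any library.

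No other gene of the MYC, MAX and MXD network passed: 1 of 11 was called higher and 0 lower, with a median log2 fold change of 0.07. That median was 0.02 without control 3 and between littermates, 0.03 with all 6 libraries and 0.12 without knockout 1. MYC itself, the growth-promoting factor that MXI1 opposes, had Myc mRNA at 18.8 and 25.8 in knockouts 1 and 2, with 14.7 in the library labelled knockout 3, and 10.8, 19.0 and 16.2 in controls, so the groups overlapped. Its log2 fold change of 0.53 ± 0.23 missed the threshold (limma adjusted p = 0.29), and it was called higher between littermates (0.023). Mycn was at 51.5 and 61.7 in knockouts 1 and 2, with 53.8 in the library labelled knockout 3 and 48.3 ± 4.71 in controls. The shared partner Max was at 37.6 and 37.2 in knockouts 1 and 2, with 34.8 in the library labelled knockout 3 and 34.2 ± 0.675 in controls. The other repressors Mxd1, Mxd3 and Mxd4 did not pass either, with log2 fold changes of -0.29, 0.10 and -0.08. Of 25 genes of ribosome making and growth that MYC is known to drive, 1 was called higher and 0 lower, and the median was 0.02. DESeq2 called 2 higher, with the cyclin gene Ccnd2 as the second. The one called by limma was Odc1, the first enzyme of polyamine synthesis, at 253 and 264 in knockouts 1 and 2, with 197 in the library labelled knockout 3 and 195 ± 12.9 in controls (limma adjusted p = 0.032). Its call was lost without any one of the 5 libraries (0.063 to 0.13).

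Of the TSC brake, the mRNAs of both main subunits were measured, and its activity was not. Tsc2 (chromosome 17, 24595816 to 24632630, minus strand), the part that makes RHEB hydrolyse GTP, was at 105 and 99.0 in knockouts 1 and 2, with 115 in the library labelled knockout 3, and 126, 118 and 116 in controls. Tsc1 (chromosome 2, 28641228 to 28691167, plus strand), which stabilizes TSC2, was at 50.8 and 50.9 in knockouts 1 and 2, with 61.8 in the library labelled knockout 3, and 59.2, 61.0 and 57.2 in controls. For each, both knockouts lay below all controls, and their mean was 0.85 times the control mean for Tsc2 and 0.86 times for Tsc1. The log2 fold change of Tsc2 was -0.23 ± 0.07 (SE, limma adjusted p = 0.14) and that of Tsc1 was -0.21 ± 0.07 (adjusted p = 0.18). Both had an unadjusted p under 0.05 (0.014 and 0.021) and failed the correction over all genes, also with edgeR and DESeq2. The Nkx2.5 locus, where only knockouts carry Cre, is on chromosome 17 like Tsc2. Whether this linkage bears on the value of Tsc2 was not tested. Tsc2 shares 693 exon bases with Pkd1 on the opposite strand, whose value was 62.0 and 71.4 in knockouts 1 and 2 and 67.2 ± 3.53 in controls. The libraries did not mark strand, so reads in that stretch cannot be assigned to either gene. The third subunit gene, Tbc1d7, was at 20.9 and 14.4 in knockouts 1 and 2, with 19.6 in the library labelled knockout 3 and 18.3 ± 1.27 in controls. The RHEB paralogue Rhebl1 was at 2.91 and 1.75 in knockouts 1 and 2, with 2.38 in the library labelled knockout 3 and 1.76 ± 0.442 in controls, and neither passed.

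Rheb (chromosome 5, 24802823 to 24842624, minus strand), the activator that TSC holds back, was at 114.4 and 110.3 in knockouts 1 and 2, with 117 in the library labelled knockout 3, and 122, 115 and 122 in controls. Its difference was the smallest of the 9, with a log2 fold change of -0.09 ± 0.07 (SE, limma adjusted p = 0.59) and a 95% interval from -0.24 to 0.07. Mtor (chromosome 4, 148448611 to 148557683, plus strand), the kinase, was at 71.2 and 75.2 in knockouts 1 and 2, with 93.7 in the library labelled knockout 3, and 93.4, 80.8 and 78.7 in controls. Control 1 and the library labelled knockout 3 stood apart at the top. The log2 fold change of Mtor was -0.20 ± 0.09 (SE, limma adjusted p = 0.32) with an interval from -0.41 to 0.02.

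Other genes of the TSC and mTOR complexes did not pass either. Of 5 genes of the TSC complex and RHEB, 0 were called by limma, edgeR or DESeq2, and 2, Tsc1 and Tsc2, had an unadjusted p under 0.05. Of 12 subunits and assembly factors of mTOR complexes 1 and 2, 0 were called by the same 3 tools, with 1 higher and 1 lower at an unadjusted p under 0.05 and a median log2 fold change of -0.07. The scaffold Rptor was at 51.2 and 54.6 in knockouts 1 and 2, with 60.3 in the library labelled knockout 3 and 60.4 ± 1.48 in controls (limma adjusted p = 0.25). Prr5l encodes a protein bound to mTOR complex 2 and was called higher between littermates (0.019) and not with 5 libraries (0.089).

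Eif4ebp1 (chromosome 8, 27260329 to 27276674, plus strand) encodes 4E-BP1, which binds the cap-binding factor eIF4E and blocks translation until mTORC1 phosphorylates it. It was at 131 and 121 in knockouts 1 and 2, with 97.4 in the library labelled knockout 3, and 96.1, 96.2 and 89.8 in controls 1 to 3. Controls spread by 3.89% of their mean, and both knockouts lay above them. Relative to the littermate control, knockout 1 had 1.36 times the value and knockout 2 had 1.26 times. A log2 fold change of 0.41 ± 0.07 was measured (SE, limma adjusted p = 0.023; 0.0006 to 0.768 over 13 alternatives). The direction stayed but the call was lost when any of the 5 libraries was left out: adjusted p was 0.0502 without control 1, 0.088 without control 2, 0.074 without control 3, 0.13 without knockout 1 and 0.054 without knockout 2. Its paralogue Eif4ebp2 was at 41.5 and 52.7 in knockouts 1 and 2, with 54.1 in the library labelled knockout 3 and 54.4 ± 1.40 in controls, and the partner Eif4e at 168 and 154 in knockouts 1 and 2, with 151 in the library labelled knockout 3 and 148 ± 7.30 in controls. Neither passed. Among 21 genes listed as mTORC1 outputs, which include the subunit gene Rptor, 1 was called higher, Eif4ebp1 itself, and 0 lower. The median was -0.08. These are mRNA levels, and mTORC1 activity was not measured. DESeq2 called 2 higher, the second being the helicase gene Eif4a1.

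**Figure D2:**
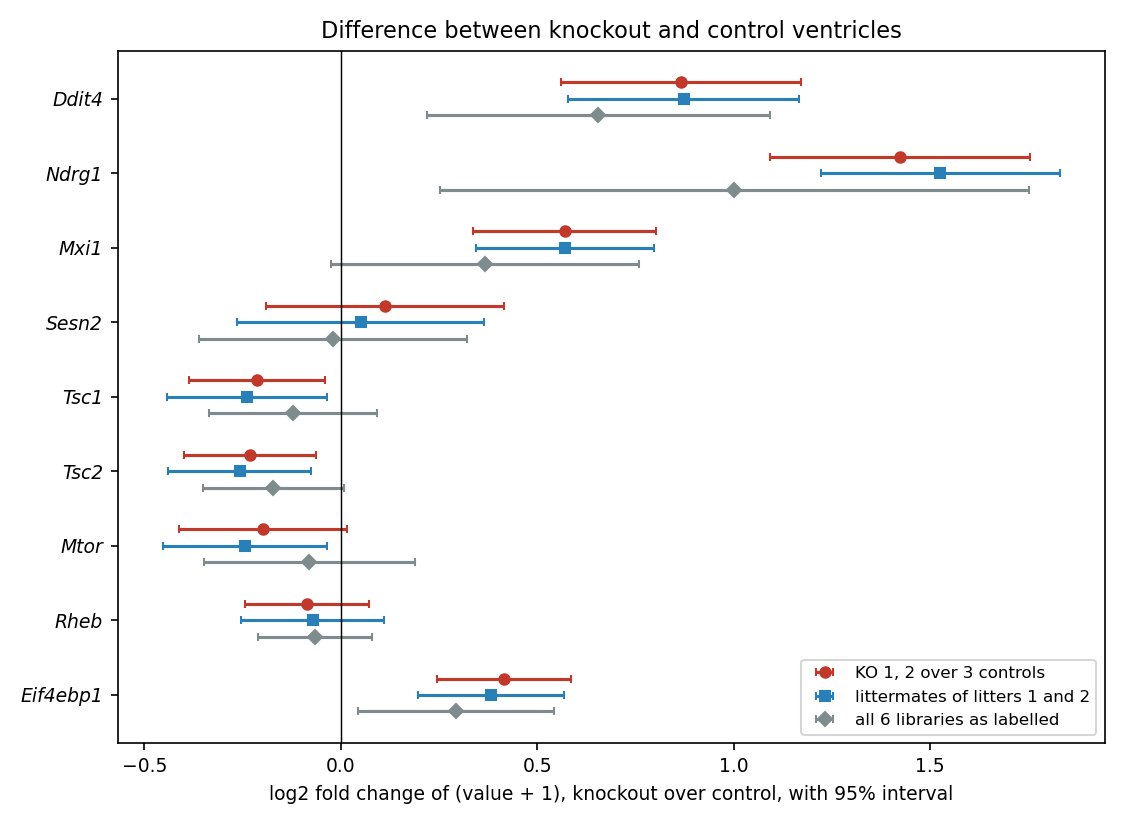
Log2 fold change of (value + 1), knockout over control, with 95% intervals from limma, for knockouts 1 and 2 over 3 controls (circles), littermates of litters 1 and 2 (squares) and all 6 libraries as labelled (diamonds). Ndrg1, Ddit4, Mxi1 and Eif4ebp1 lie right of 0, at 1.42, 0.87, 0.57 and 0.41 with 5 libraries, and the intervals of these 4 are wider when the library labelled knockout 3 is kept.

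**Figure D3:**
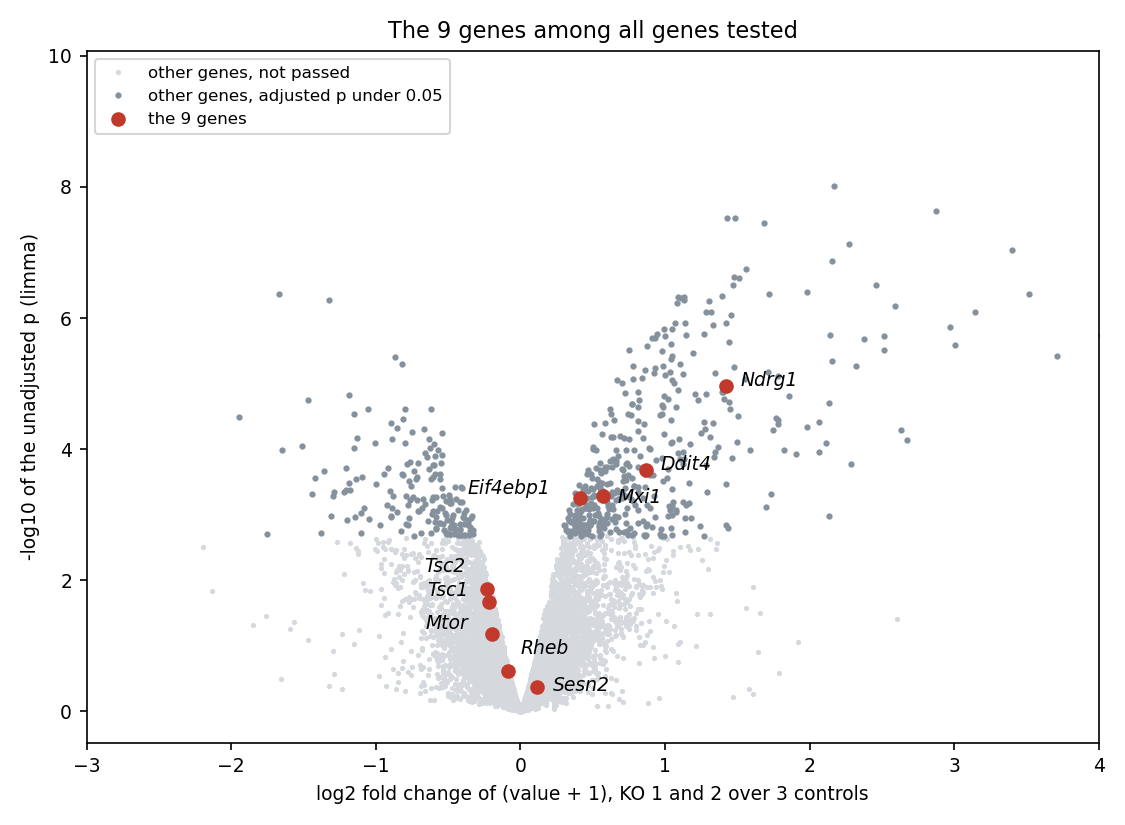
Each point is 1 of 13843 genes, with the log2 fold change of knockouts 1 and 2 over 3 controls on the horizontal axis and -log10 of the unadjusted limma p on the vertical axis (8 genes lie outside the horizontal range). The 4 members called higher stand among 416 genes called higher, and the other 5 lie below the threshold.

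In the comparison within litters, where litters 1 and 2 entered as blocks, the same 4 members were called higher and 0 lower, where 4.92% of all genes were called higher, 3.21% lower and 8.13% in either direction. The adjusted p values there were 2.0e-05 for Ndrg1, 0.0015 for Ddit4, 0.0046 for Mxi1 and 0.016 for Eif4ebp1 (limma). That fit shares both knockouts and 2 controls with the fit of 5 libraries and leaves 1 residual degree of freedom, so it is no independent support. On recovered counts, edgeR called these 4 higher and 0 lower, beside 2.94% of all genes higher, 1.18% lower and 4.12% in either direction. DESeq2 called the same 4, beside 3.97% higher, 1.99% lower and 5.96% in either direction.

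Levels were compared between members per kilobase of annotated exon (union of GENCODE M21 exons). This length joins the exons of all annotated transcripts of a gene and can exceed that of the RNA present. The order between genes, Ddit4 against Rheb included, depends on it, and other lengths were not tried. In controls the order from the highest was Eif4ebp1 (42.8 ± 1.67), Rheb (15.5 ± 0.537), Tsc2 (12.47 ± 0.568), Ddit4 (11.3 ± 0.375), Mtor (8.34 ± 0.788), Mxi1 (6.66 ± 0.706), Tsc1 (4.998 ± 0.162), Sesn2 (4.24 ± 0.338) and Ndrg1 (1.55 ± 0.233), as values per kilobase (SD, n = 3). The 3 control values of neighbours in this order did not overlap. In knockouts 1 and 2 Ddit4, at 18.3 and 24.3 per kilobase, lay above Rheb, at 14.8 and 14.3, and Mxi1, at 9.99 and 9.86, above Mtor, at 7.04 and 7.44. Ndrg1, at 4.33 and 4.44, reached the level of Tsc1 (4.29 and 4.30) and Sesn2 (4.95 and 4.26) there.

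**Figure D4:**
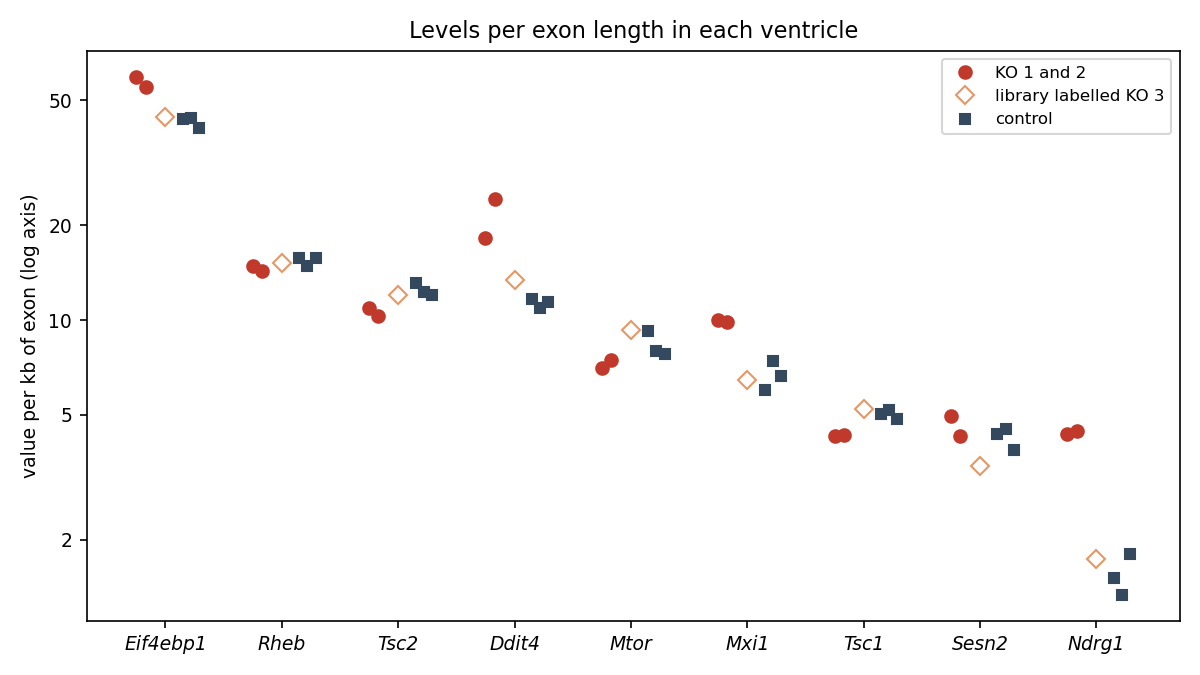
Deposited value per kilobase of exon (union of all annotated exons, log axis) of the 9 genes, ordered by the control mean, in knockouts 1 and 2 (circles), the library labelled knockout 3 (open diamonds) and 3 controls (squares). The order between genes depends on these lengths. Ddit4 at 18.3 and 24.3 in knockouts 1 and 2 stands above Rheb at 14.8 and 14.3, while in controls it stands below.

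Inputs to mTOR were read from further lists. In AMPK energy sensing 1 of 13 genes was called higher and 0 lower (median 0.0086). It was Prkab2, the beta-2 regulatory subunit of AMPK, at 139.7 and 139.1 in knockouts 1 and 2, with 87.6 in the library labelled knockout 3, and 87.3 ± 1.82 in controls (log2 0.67 ± 0.07, limma adjusted p = 0.0014). Its call held whichever of the 5 libraries was left out. In amino acid sensing by Rag GTPases, Ragulator and GATOR 1 of 27 was called higher and 0 lower (median -0.03). At an unadjusted p under 0.05 (limma), 2 were higher and 4 lower. Between littermates Castor2, a relative of the arginine sensor Castor1, was called lower (0.037). The gene called higher was Rraga, a Rag GTPase that brings mTORC1 to the lysosome, at 94.1 and 91.0 in knockouts 1 and 2, with 69.05 in the library labelled knockout 3 and 68.6 ± 5.89 in controls (limma adjusted p = 0.0399). That call was lost without any one of the 5 libraries (0.072 to 0.19). In insulin and PI3K input 0 of 18 were called by limma or edgeR. At an unadjusted p under 0.05 (limma), 0 were higher and 5 lower, with the share of all genes not counted. DESeq2 and the littermate fit each called 3 lower, the insulin receptor Insr, the PI3K subunit Pik3r3 and the kinase Akt1. Over all genes, DESeq2 called 1.99% lower and the littermate fit 3.21%. Insr was at 132 and 115 in knockouts 1 and 2, with 174 in the library labelled knockout 3 and 161 ± 14.2 in controls.

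Ddit4, Sesn2 and Eif4ebp1 are also known targets of ATF4, the transcription factor of the amino acid stress response, so that list was read beside them. Of 19 measured genes 4 were called higher and 1 lower, with a median of 0.11. Between littermates 2 were called lower, the second being the serine enzyme gene Phgdh (0.033, against 0.33 with 5 libraries). Besides Ddit4 and Eif4ebp1, the serine enzyme Shmt2 rose, at 123 and 139 in knockouts 1 and 2, with 61.8 in the library labelled knockout 3 and 63.1 ± 4.65 in controls, and so did the lipoprotein receptor Vldlr, at 294 and 233 in knockouts 1 and 2, with 141 in the library labelled knockout 3 and 120 ± 22.4 in controls. Vldlr, also a HIF target, lost its call without knockout 1 (limma adjusted p = 0.086). Aldh1l2, a mitochondrial folate enzyme, fell, at 29.7 and 29.004 in knockouts 1 and 2, with 64.6 in the library labelled knockout 3 and 68.7 ± 9.91 in controls. Atf4 mRNA, at 112 and 118 in knockouts 1 and 2, with 104 in the library labelled knockout 3 and 101 ± 4.44 in controls, did not pass (adjusted p = 0.25).

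Genes of growth arrest and cell death linked to HIF were listed as well. Of 13 measured, 7 were called higher and 1 lower, beside 3.01% and 1.24% of all genes, with a median of 0.74. The 4 with the smallest p were Higd1a, a mitochondrial survival factor (log2 1.56 ± 0.09), Bhlhe40, a transcriptional repressor (1.52 ± 0.09), Bnip3, a mitophagy receptor (1.98 ± 0.13), and Ero1l, an oxidase of the endoplasmic reticulum (1.09 ± 0.07), with limma adjusted p values of 0.00017 to 0.00025. In the library labelled knockout 3 these 4 stood at 54.6, 28.1, 172 and 108 beside control means of 53.7, 26.4, 161 and 106. Bnip3l, Bhlhe41 and the cell cycle inhibitor Cdkn1a rose as well. Cdkn1a was at 30.8 and 32.9 in knockouts 1 and 2, with 15.2 in the library labelled knockout 3 and 19.2 ± 1.39 in controls, and lost its call without knockout 1 (0.072) or knockout 2 (0.083). Rassf5 fell, with the call lost when control 1, control 3 or either knockout was left out (0.11 to 0.19). The other 5, Cdkn1b, Cdkn1c, Pmaip1, Btg1 and Klf10, did not pass. The calls thus do not describe growth arrest and cell death as a whole.

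**Figure D5:**
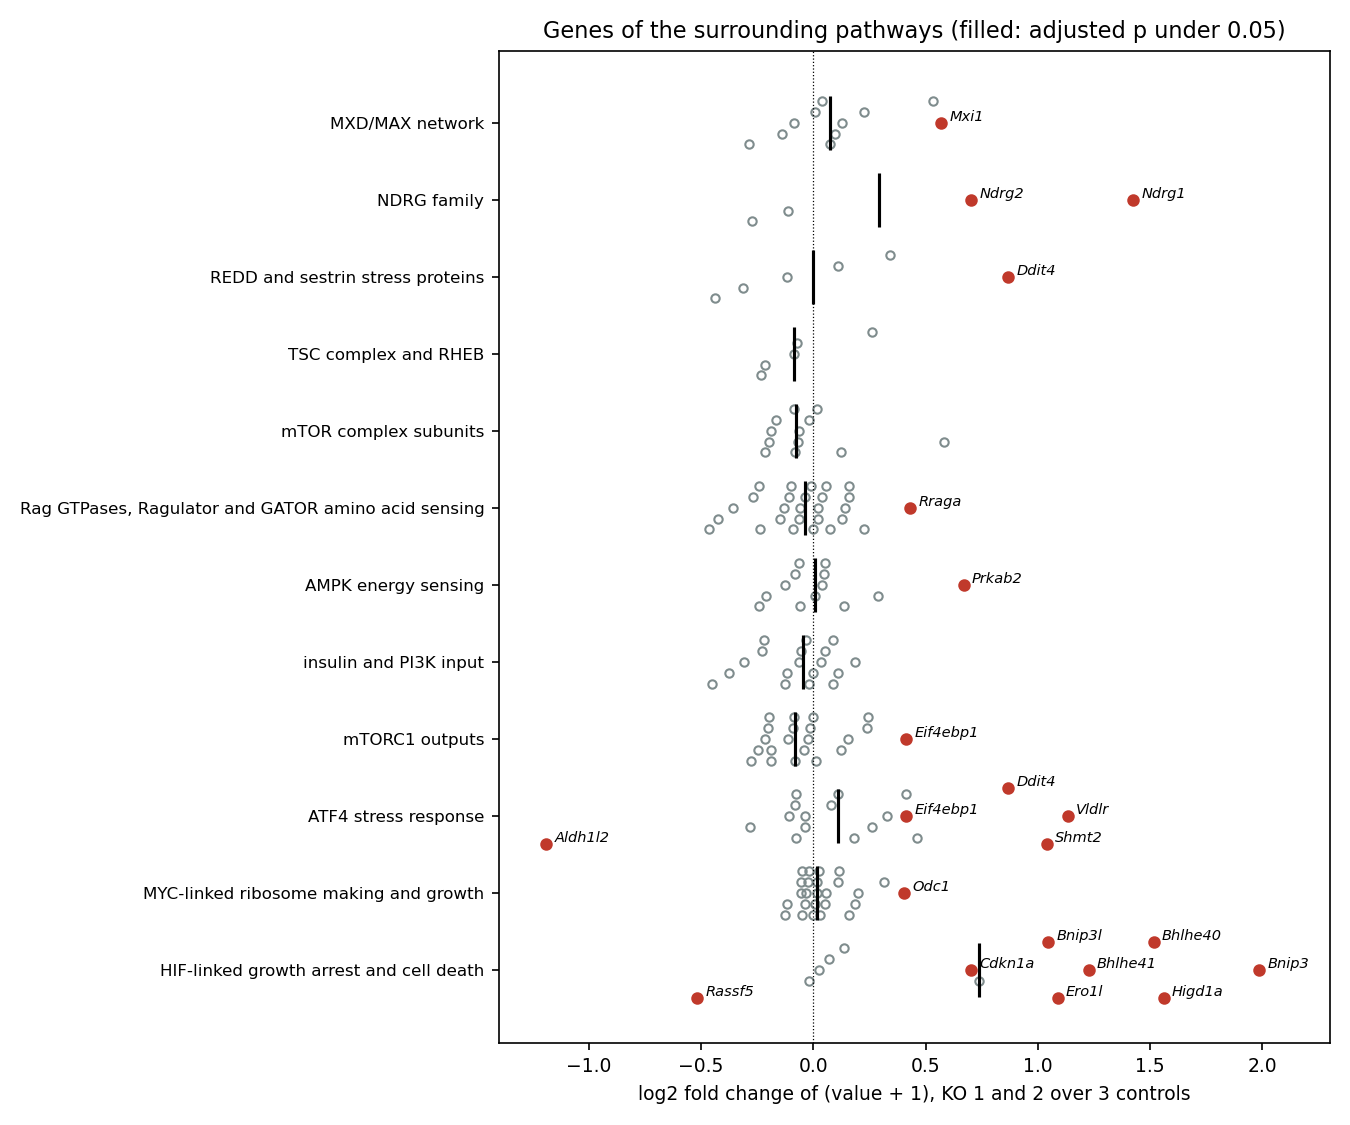
Log2 fold change of (value + 1), knockouts 1 and 2 over 3 controls, for each measured gene of 12 lists around the members (filled points passed an adjusted p of 0.05, bars are list medians). The HIF-linked arrest list has its median at 0.74, and the medians of the TSC, mTOR, amino acid, AMPK and insulin lists lie between -0.09 and 0.01.

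Some markers of other heart cell types were also called higher in knockouts 1 and 2, where 3.01% of all genes were. Of 8 epicardial markers 4 were called higher, with a summed value of 799 and 642 in knockouts 1 and 2, with 359 in the library labelled knockout 3 and 307 to 382 in controls. Of 7 smooth muscle and pericyte markers 3 were called higher. Sums of the 7 were 2578 and 2587 in knockouts 1 and 2, with 1405 in the library labelled knockout 3 and 1345 to 1665 in controls. DESeq2 called Acta2, Tagln and Cnn1. With limma and 5 libraries 4 markers did not pass, among them Myh11 (log2 0.0085 ± 0.45, adjusted p = 0.996). Of 8 endothelial markers 2 were called higher, with sums of 1710.4 and 1686 in knockouts 1 and 2, with 1395 in the library labelled knockout 3 and 1446 to 1549 in controls. Of 5 measured atrial markers 1, Myl7, was called higher, with sums of 5132 and 4032 in knockouts 1 and 2, with 2071 in the library labelled knockout 3 and 2763 to 3467 in controls. Sums of the 10 cardiomyocyte markers were 42054 and 37617 in knockouts 1 and 2, with 41034 in the library labelled knockout 3 and 36720 to 44436 in controls. Sums of the 8 cushion and fibroblast markers were 1801 and 1143 in knockouts 1 and 2, with 745 in the library labelled knockout 3 and 914 to 1451 in controls. Sums of the 10 red cell markers were 7083 and 15597 in knockouts 1 and 2, with 11488 in the library labelled knockout 3 and 6421 to 14488 in controls. Sums of 7 measured macrophage markers were 33.6 and 37.0 in knockouts 1 and 2, with 36.3 in the library labelled knockout 3 and 24.4 to 60.7 in controls, and those of 2 measured neural markers 9.78 and 10.9 in knockouts 1 and 2, with 11.3 in the library labelled knockout 3 and 10.8 to 15.7 in controls. None of the cardiomyocyte, cushion, red cell, macrophage or neural markers was called with 5 libraries by limma, edgeR or DESeq2. Between littermates, 6 epicardial and 4 smooth muscle markers were called higher, as were 2 cushion markers, Tcf21 and Dcn. Nkx2-5 of the cardiomyocyte list and the globin Hbb-bs were called lower. In that fit 4.92% of all genes were called higher and 3.21% lower. Nkx2-5 is the locus that carries Cre in knockouts only, and whether the Cre allele bears on its value was not tested. At an unadjusted p under 0.05 (limma, 5 libraries) 2 cushion markers were higher, and 1 cardiomyocyte marker, again Nkx2-5, and 1 neural marker were lower. No marker measured was at 0 in any library. The part of these cell types in the differences of the 4 called members was not tested.

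The genes most like each called member were found by the root mean square difference of log2(value + 1), relative to each gene's own control mean, over the 6 libraries and among 6710 or 6711 genes with a mean above 27.3. For Ndrg1 they were the adenylate kinase Ak4 (0.12), the collagen lysyl hydroxylase Plod2 (0.12) and the oxygen sensor Egln1 (0.14). Ak4 was at 172 and 170 in knockouts 1 and 2, with 64.4 in the library labelled knockout 3 and 62.8 ± 0.639 in controls. For Ddit4 they were the phosphatase methylesterase Ppme1 (0.14), the tRNA synthetase complex protein Aimp2 (0.15) and the RNA polymerase III subunit Polr3g (0.15). Ppme1 was at 95.4 and 100.4 in knockouts 1 and 2, with 51.4 in the library labelled knockout 3 and 50.5 ± 1.496 in controls. For Mxi1 they were Sipa1, Tmsb10 and Cd34, at 0.06 each, the last being a surface protein of endothelial and blood progenitor cells at 148 and 145 in knockouts 1 and 2, with 105 in the library labelled knockout 3 and 102 ± 8.81 in controls. For Eif4ebp1 they were Gas2l3 (0.03), Colgalt1 (0.04) and Tro (0.04). All 12 passed the test with 5 libraries, and they were picked for likeness, so this is a description.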

How the data were processed

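Polyadenylated RNA of single embryonic ventricles was sequenced as single reads of 75 bp from 500 ng of total RNA. Per the submitters' processing notes, CASAVA 1.8.2, cutadapt 1.3 and RSEM 1.2.3 were used with GRCm38 (annotation and scaling: not given in the sources used here). As a unit, the authors deposited a normalized signal per gene. In every column 100% of values were whole multiples of 1 step, within 0.01 reads, so whole counts could be recovered. These may be rounded RSEM estimates and are called reads here. The steps matched edgeR's TMM effective library sizes at a ratio of 1. Each gene reached 1 in 3 or more libraries. GENCODE M21 (GRCm38) named 13675 genes and left 168 unnamed. RSEM shares reads among near copies, whose values are uncertain.

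The main test was limma 3.58.1 with trend (R 4.3.3) on log2(value + 1), which understates changes of low genes, over all 13843 genes, for knockouts 1 and 2 against 3 controls. Adjusted p is Benjamini-Hochberg. With 5 libraries, the share of all genes at an unadjusted p under 0.05 was not counted, so list counts at that threshold stand without it. Alternatives used edgeR 4.0.16 and DESeq2 1.42.0 on recovered read counts. Scripts were tested on simulated data. P-values measure spread between embryos. The members and lists were chosen with earlier results of these data known, the library labelled knockout 3 being set apart for its Vhl value. Litters are in the labels: controls and knockouts 1 and 2 share litters 1 and 2, control 3 is of litter 3 and knockout 3 of litter 4, while the design text speaks of 3 litters. Over genes, the difference between litters 1 and 2 in knockouts correlated at 0.324 with that in controls. List genes were named when called, up to 4 per list by p. Also named were paralogs of the members, Myc, Mycn and Max, and the 3 most alike genes. Rptor, Prr5l, Atf4, Eif4e, Eif4a1, Insr, Pik3r3, Akt1, Ccnd2, Castor2, Phgdh, Hif1a, Myl2, Tcf21, Dcn, Nkx2-5, Hbb-bs, Acta2, Tagln, Cnn1 and Myh11 were named after their values were seen. The same holds for Cdkn1b, Cdkn1c, Pmaip1, Btg1 and Klf10.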

Additional observations from a re-analysis of the deposited data

Results flagged for a closer look

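The library labelled knockout 3 took no part in the comparison of 5 libraries, and 4 of the 9 members lay above every control in it. Ddit4 was at 23.5 there and at most 20.4 in controls. Tsc1 was at 61.8 beside a highest control of 61.0, Mtor at 93.7 beside 93.4, and Eif4ebp1 at 97.4 beside 96.2. Over all genes, 22.2% lay above all 3 controls in that library and 21.7% below, and 2 members, Sesn2 and Tsc2, lay below. A single library allows no test of these values.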

How the results depend on the processing

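The call of 4 members higher and 0 lower stood at 4 and 0 with edgeR, DESeq2, pseudocounts of 0.5 and 4, a minimum mean value of 5, columns rescaled to 1000000 and the replicate block of litters 1 and 2. It was 0 higher with all 6 libraries as labelled, and 1 to 3 higher when 1 library was left out. Over all genes, calls were 0 higher and 0 lower with all 6 libraries, 681 higher and 444 lower with the replicate block, and 276 lower with DESeq2. Leaving out 1 library gave 146 to 297 higher and 44 to 90 lower. The cause was not tested, though fewer samples enter the fits without a library. Of 117 fold changes of single members under alternatives, 102 kept direction and side of the threshold, 14 lost the call and 1 reversed, that of Sesn2, -0.02 with all 6 libraries. No scaling moved the median of all genes beyond -0.0213. The control libraries held 90 to 113 reads of Ndrg1 and 128 to 187 of Sesn2, the fewest of the 9. The replicate block changed no call of a member.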
